A study of Mus musculus with 48 samples.

Results

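Wnt signalling was described here for 47 of the 16510 genes counted in the hypothalamus of control and Eed-cKO mouse embryos. Members were taken by name: every gene of the count table beginning with Wnt, Fzd, Sfrp or Dkk, and 15 single genes (*Frzb*, *Wif1*, *Lrp5*, *Lrp6*, *Axin1*, *Axin2*, *Lef1*, *Tcf7*, *Tcf7l1*, *Tcf7l2*, *Rspo1*, *Rspo2*, *Rspo3*, *Nkd1* and *Notum*), all of which were present. By role they were 14 ligands, 10 Frizzled receptors, 2 co-receptors, 3 R-spondins, 11 secreted antagonists, 4 TCF/LEF factors and 3 intracellular regulators. *Dkkl1* was placed with the antagonists because its name begins with Dkk. Its product is known mainly as a protein of the sperm acrosome.

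Wnt ligands are lipid-modified secreted proteins that bind Frizzled receptors together with Lrp5 or Lrp6. In the canonical branch this stops the Axin-containing complex from destroying beta-catenin, which then acts with TCF/LEF factors on target genes, among them *Axin2*, *Nkd1*, *Notum* and *Lef1*. Secreted Sfrp, Wif1 and Frzb proteins bind Wnts, Dkk proteins act at the co-receptors, and R-spondins raise the amount of receptor at the membrane. In the developing forebrain, Wnt signals help to set regional identity, and *Tcf7l2* is a well-known gene of thalamic and habenular neurons.

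The data were single-cell RNA-seq counts of the embryonic hypothalamus at E18.5, in 48 libraries from 15 embryos. The 6 control embryos were Eed fl/fl, with both alleles of *Eed* flanked by loxP sites and intact. The 9 Eed-cKO embryos were Eed fl/fl; Sox1-Cre/+, in which Cre expressed from the *Sox1* locus removes *Eed*, a core subunit of the histone methyltransferase complex PRC2, in cells of the neural tube. Vessels, meninges and microglia should not be reached by this Cre, which was not tested here. The controls carried no Cre, and no litter, as read from the library names, held both genotypes (4 control and 6 Eed-cKO litters), so that litter and genotype cannot be told apart.

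A library held 163 to 1207 cells and 576432 to 4513505 unique molecular identifiers (UMIs, each counting 1 captured transcript), with a median of 2663 to 7532 UMIs per cell. Of the 14019 different cell barcodes, 101 occurred in more than 1 library. Non-neural clusters were set aside by marker genes, which left 13293 neural cells (All-Hypo; 6839 control and 6454 Eed-cKO). *Eed* itself fell from 32.0 ± 1.90 CPM (counts per 1000000, mean ± SD, n = 6) to 23.4 ± 2.62 (n = 9) in these cells, with an edgeR adjusted p of 0.000454. In the astrocyte-like clusters alone a fall of *Eed* was not shown, on 52 control and 50 Eed-cKO UMIs. It was at 33.6 ± 11.4 CPM in control and 32.2 ± 13.4 CPM in Eed-cKO embryos (edgeR adjusted p = 0.951). The deletion was labelled by genotype, and a 3′ count may still detect transcripts of a deleted allele. In sums over cells, fewer cells of a kind and less RNA per cell cannot be told apart.

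Promoter sequences are shown for 4 members with large differences below: *Wif1* and *Fzd10*, the members with the highest fitted rises in astrocyte-like cells among those called, *Sfrp2*, with the largest fall there, and *Dkkl1*, with the lowest adjusted p in All-Hypo. PRC2 acts mainly at promoters rich in CpG, so CG is in capitals. Each run covers 250 bases before and 50 after a RefSeq transcription start on GRCm38.p6, and is written 5′ to 3′ on the strand of the gene. *Fzd10* (chr5:128600856-128601155, plus strand) holds 45 CG. *Wif1* (chr10:121033754-121034053, plus strand) holds 25 and *Sfrp2* (chr3:83766071-83766370, plus strand) holds 22. *Dkkl1* (chr7:45211834-45212133, minus strand) holds 14.
Fzd10: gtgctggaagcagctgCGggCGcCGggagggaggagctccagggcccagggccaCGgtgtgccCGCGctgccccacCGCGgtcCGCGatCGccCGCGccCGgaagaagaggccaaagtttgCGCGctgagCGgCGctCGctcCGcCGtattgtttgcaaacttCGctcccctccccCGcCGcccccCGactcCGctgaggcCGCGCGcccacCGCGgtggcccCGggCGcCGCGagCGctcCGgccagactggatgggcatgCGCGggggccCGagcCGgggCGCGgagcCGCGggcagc
Wif1: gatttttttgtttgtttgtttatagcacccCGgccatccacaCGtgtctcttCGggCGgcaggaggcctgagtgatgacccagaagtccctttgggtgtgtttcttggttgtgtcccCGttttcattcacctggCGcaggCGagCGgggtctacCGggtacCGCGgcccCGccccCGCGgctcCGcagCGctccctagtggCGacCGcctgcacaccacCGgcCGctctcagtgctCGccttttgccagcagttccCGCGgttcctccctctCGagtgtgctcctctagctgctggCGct
Sfrp2: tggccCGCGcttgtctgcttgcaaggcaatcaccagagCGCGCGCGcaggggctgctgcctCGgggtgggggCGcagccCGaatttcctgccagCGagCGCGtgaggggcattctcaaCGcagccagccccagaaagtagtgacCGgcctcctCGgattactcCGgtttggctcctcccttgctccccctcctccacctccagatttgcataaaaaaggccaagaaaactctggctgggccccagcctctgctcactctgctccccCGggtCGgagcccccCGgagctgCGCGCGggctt
Dkkl1: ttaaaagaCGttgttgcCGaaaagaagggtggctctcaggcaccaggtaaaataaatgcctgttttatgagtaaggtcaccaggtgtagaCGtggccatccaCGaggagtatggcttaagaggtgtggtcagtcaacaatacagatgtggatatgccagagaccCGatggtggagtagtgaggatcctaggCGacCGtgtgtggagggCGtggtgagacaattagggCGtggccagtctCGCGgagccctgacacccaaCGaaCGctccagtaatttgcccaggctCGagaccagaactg
The promoter table matched 31 of the 47 members, with 39 promoters. Their median was 24 CG per 300 bases, against 7 over all 32851 promoters of the table, and 25 of the 39 (64.1%) held at least 20 CG against 26.5% of all. At least 1 CG was found in 100% of the members' promoters and in 94.6% of all. The TCF/LEF core CTTTGA, searched on both strands, was found in 6 of the 39 (15.4%) and in 16.0% of all promoters, so members did not stand out in that motif. Of the 4 sequences above, none held the core.

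In All-Hypo, 32 of the 47 members passed the filter on low counts, and 12 were higher and 1 was lower in Eed-cKO embryos. The 12 were 37.5% of the members tested, against 15.3% of all 12558 genes called higher. The 1 lower member was 3.12%, against 12.4% of all genes. The median log2 fold change was 0.40 over the members and 0.0058 over all genes tested. At an unadjusted p of 0.05 or less there were 17 members. In 4 members the lowest Eed-cKO embryo was above the highest control, and such a full separation in either direction was seen in 6.68% of all genes. When every gene with at least 15 UMIs was kept, 46 members were tested, of which 18 (39.1%) were higher against 14.3% of all genes and 2 (4.35%) were lower against 11.6%. Of the 14 members added in this way, 6 were higher and 1 was lower. The 6 had control means of only 0.124 to 0.554 CPM and were tested mainly through the Eed-cKO embryos, so this share is no separate support. Of the 12 higher in the main test, 1 (*Fzd6*) had a control median below the filter.

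Among the receptors, 4 of 9 tested were higher and none of the 9 was lower in All-Hypo, against 15.3% and 12.4% of all genes. With so few genes in each role, the counts by role here and below are a description only. *Fzd1*, a receptor of canonical Wnts, ranged from 17.5 to 29.96 CPM in control embryos (median 28.3) and from 34.6 to 51.8 in Eed-cKO embryos (median 42.9). All Eed-cKO embryos were above all controls, and the log2 fold change was 0.75 ± 0.12 (SE, adjusted p = 8.00e-05). *Fzd5*, a receptor needed in the eye field and ventral forebrain, was at 7.27 to 18.3 CPM in controls (median 10.3) and at 14.8 to 26.4 in Eed-cKO embryos (median 20.6). Its groups overlapped at their ends, with a log2 fold change of 0.80 ± 0.18 (adjusted p = 0.00264).

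*Fzd2* went from 4.11 to 16.6 CPM (median 7.20) in controls and from 6.56 to 27.0 (median 13.9) in Eed-cKO embryos. The groups overlapped widely, and its adjusted p of 0.0268 (log2 fold change 0.82 ± 0.27) passed 0.05 without embryo F0589_E1, F4520_E2, F4530_E2, F4650_E2 or F4690_E3, with log2 fold changes of 0.62 to 0.79. *Fzd6*, a receptor best known from planar cell polarity, was low: 0.474 to 3.15 CPM in controls (median 0.860) and 0 to 6.89 in Eed-cKO embryos (median 4.63). The groups overlapped, with a log2 fold change of 1.89 ± 0.40 (adjusted p = 0.00142). With 1 of the 15 embryos left out in turn, *Fzd6* had a value in only 8 fits (1.72 to 2.01, all called). In the others it gave no value, so its call is less secure than those of members with a value in each fit. Its highest pooled level of any cell kind was in endothelial-like cells, at 352 CPM, and the 8 endothelial markers summed to 17.6 to 26.9 CPM in control and 30.2 to 72.6 CPM in Eed-cKO All-Hypo embryos, whose part in the *Fzd6* difference was not tested. *Fzd6* and *Fzd10* were the 2 tested members whose control median lay below the filter, which the 9 Eed-cKO embryos of 15 largely set. *Fzd3*, *Fzd7*, *Fzd8*, *Fzd9* and *Fzd10* did not pass the test, with log2 fold changes from -0.095 (*Fzd3*) to 0.85 (*Fzd10*).

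The secreted antagonists gave 4 higher and no lower member of 8 tested, against 15.3% and 12.4% of all genes. *Dkkl1* (chr7:45207519-45212147, minus strand) lay between 5.61 and 12.6 CPM in controls (median 8.14) and between 13.9 and 33.6 in Eed-cKO embryos (median 19.7). The genotypes did not overlap, and the log2 fold change of 1.27 ± 0.19 had the lowest adjusted p of the members (3.73e-05). *Sfrp1*, which binds Wnts in the extracellular space, was at 32.5 to 49.1 CPM in controls (median 39.3) and 53.3 to 68.2 in Eed-cKO embryos (median 59.7). There was again no overlap, at a smaller log2 fold change of 0.58 ± 0.098 (adjusted p = 0.000156).

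*Sfrp4*, of the same family, ranged from 4.78 to 7.98 CPM (median 6.59) in controls and from 9.89 to 14.2 (median 11.0) in Eed-cKO embryos, a log2 fold change of 0.82 ± 0.14 (adjusted p = 0.000182). It was the last of the 4 members with no overlap, after *Fzd1*, *Dkkl1* and *Sfrp1*. *Wif1*, the Wnt inhibitory factor, was found at 3.48 to 7.89 CPM (median 4.45) in controls and 6.92 to 16.1 (median 9.28) in Eed-cKO embryos. Only the ends of its groups overlapped, with a log2 fold change of 1.05 ± 0.22 (adjusted p = 0.00130). *Sfrp2*, *Frzb*, *Dkk2* and *Dkk3* did not pass, at log2 fold changes from -0.34 (*Sfrp2*) to 0.56 (*Frzb*).

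**Figure D1:**
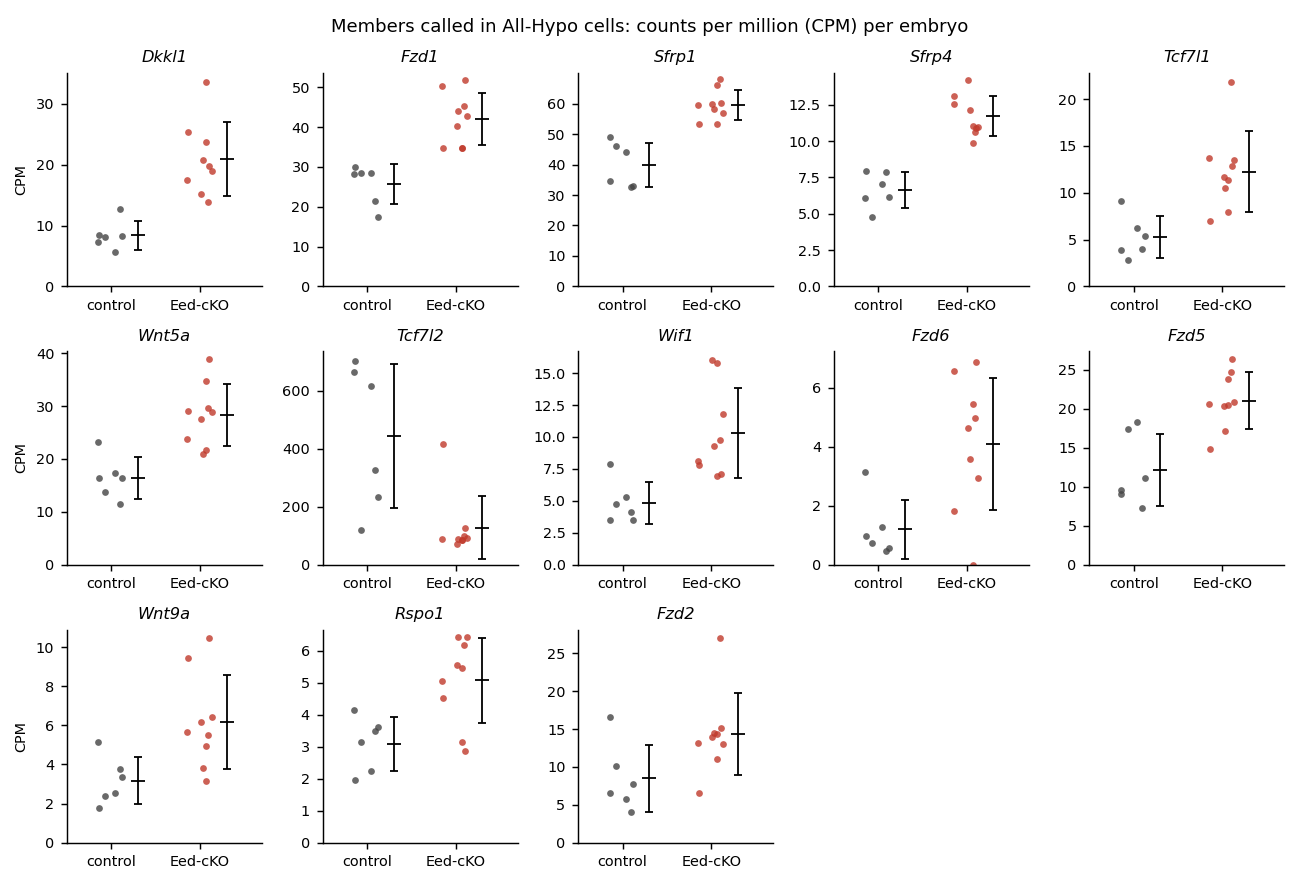
CPM per embryo in All-Hypo cells for the 13 members called there, 1 panel each with its own axis from 0, with 6 control and 9 Eed-cKO embryos as points and the mean ± SD beside them. *Dkkl1*, *Fzd1*, *Sfrp1* and *Sfrp4* show no overlap between the genotypes, and *Tcf7l2* is the only member shown that is lower in Eed-cKO.

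Of 14 ligands, 6 passed the filter in All-Hypo and 2 were higher, against 15.3% of all genes. *Wnt5a*, a mainly non-canonical ligand, ranged from 11.5 to 23.3 CPM in controls (median 16.4) and from 20.9 to 39.0 in Eed-cKO embryos (median 28.8). The 2 lowest Eed-cKO embryos lay below the highest control, and the log2 fold change was 0.78 ± 0.15 (adjusted p = 0.000518). *Wnt9a*, a less abundant ligand, was at 1.75 to 5.13 CPM in controls (median 2.95) and 3.16 to 10.5 in Eed-cKO embryos (median 5.67). Its groups overlapped, with a log2 fold change of 1.01 ± 0.26 (adjusted p = 0.00531). *Wnt9a* was highest in ependymal-like cells (81.5 CPM), of which 44 came from controls and 210 from Eed-cKO embryos, and the part of these numbers in the result was not tested. Its pooled level in neuron-like cells was 2.34 CPM in control and 1.97 CPM in Eed-cKO. In astrocyte-like cells it was 8.57 and 20.9 CPM, and in ependymal-like cells 61.1 and 86.3 CPM. *Wnt3*, *Wnt4*, *Wnt7a* and *Wnt7b* did not pass, at log2 fold changes from -0.14 (*Wnt3*) to 0.10 (*Wnt7b*), and those of *Wnt4* and *Wnt7b* changed sign under some settings.

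The R-spondin *Rspo1* ranged from 1.95 to 4.14 CPM in controls (median 3.31) and from 2.85 to 6.43 in Eed-cKO embryos (median 5.44). The groups overlapped, and it was higher by 0.76 ± 0.22 on the log2 scale (adjusted p = 0.0120). *Rspo2* gave a value of the opposite sign, -0.61 ± 0.24, and did not pass (adjusted p = 0.0667). The co-receptor *Lrp6* did not pass either (0.26, adjusted p = 0.0772).

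Neither *Axin1*, a scaffold of the destruction complex, nor the target genes *Axin2* and *Nkd1* passed the test in All-Hypo. *Axin2*, widely used as a readout of canonical signalling, had a log2 fold change of 0.26 ± 0.15 (adjusted p = 0.221), and *Nkd1* one of 0.44 ± 0.23 (adjusted p = 0.164). *Notum*, a secreted deacylase that inactivates Wnts, was left out by the filter on low counts, with 9 UMIs in control and 56 in Eed-cKO All-Hypo cells. Kept by the 15-UMI filter, it was higher by 2.65 ± 0.52 on the log2 scale (adjusted p = 0.000643), with every Eed-cKO embryo above every control. Its highest level in either genotype was in endothelial-like cells, whose markers in All-Hypo are given with *Fzd6*, and their part in the *Notum* difference was not tested.

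Of the 3 TCF/LEF factors tested in All-Hypo, 1 was higher, 1 was lower and 1 did not pass (15.3% of all genes were higher and 12.4% lower). *Tcf7l1*, mostly a repressor, ranged from 2.84 to 9.07 CPM in controls (median 4.69) and from 6.97 to 21.8 in Eed-cKO embryos (median 11.7). The groups overlapped at their ends, and the log2 fold change was 1.31 ± 0.24 (adjusted p = 0.000392). Its highest level pooled over the genotypes was in tanycyte-like cells (137 CPM), of which 62 were control and 211 Eed-cKO cells. The 8 tanycyte markers summed to 102 to 169 CPM in control and 228 to 336 CPM in Eed-cKO All-Hypo embryos, with 7 of 8 higher, and the part of this in the *Tcf7l1*, *Fzd5* and *Sfrp1* differences, all members with their highest pooled level in tanycyte-like cells, was not tested. *Lef1* did not pass (0.42, adjusted p = 0.0839), and *Tcf7*, with 6 and 17 UMIs, was left out by the filter on low counts and did not pass with the 15-UMI filter (1.48, adjusted p = 0.123).

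*Tcf7l2* (chr19:55741820-55933654, plus strand) had the most UMIs of the members and was the only one that fell in All-Hypo. Control embryos ranged from 119 to 702 CPM (median 472) and Eed-cKO embryos from 69.8 to 417 (median 89.3). The ranges overlapped because the lowest control lay below the 2 highest Eed-cKO embryos, F502_E6 at 417 CPM and the next at 127 CPM. The log2 fold change was -1.80 ± 0.38 (adjusted p = 0.00122). Most of this difference lay in 1 neuron-like cluster led by *Gbx2*, *Tcf7l2* and *Lhx9*, genes known from the thalamus, which held 342 control and 26 Eed-cKO cells. It made up 0.622 to 9.53% of the All-Hypo cells of a control embryo, 0% in 8 Eed-cKO embryos and 5.08% in F502_E6. Since *Tcf7l2* leads that cluster, its share there is a description only: 69.2% of all control and 7.87% of all Eed-cKO *Tcf7l2* UMIs.

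Without this cluster, *Tcf7l2* ranged from 63.4 to 309 CPM in control All-Hypo (median 127) and from 70.4 to 302 in Eed-cKO (median 89.2). The genotypes overlapped almost fully, and the log2 fold change of -0.32 ± 0.33 did not pass (adjusted p = 0.509). Since *Tcf7l2* leads the cluster taken out, and most of the cells in it were control cells, this change was largely set by the removal. It is a description only. Whether the dissections of the genotypes took different amounts of neighbouring thalamus was not tested. Without the cluster 14 of 32 members tested were higher (43.8% against 14% of all 12574 genes) and 1 was lower (3.12% against 11.5%) in All-Hypo, and 11 of the 12 members called higher with it were called again. *Fzd10*, *Nkd1*, *Lef1* and *Rspo2* then passed, with log2 fold changes of 1.95, 1.09, 0.66 and -0.69 and adjusted p-values of 0.00116, 0.000178, 0.0115 and 0.0396, and *Fzd2* no longer did (adjusted p = 0.0513). *Fzd10* and *Fzd6* again had a control median below the filter. This set of cells was chosen after seeing the data.

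**Figure D2:**
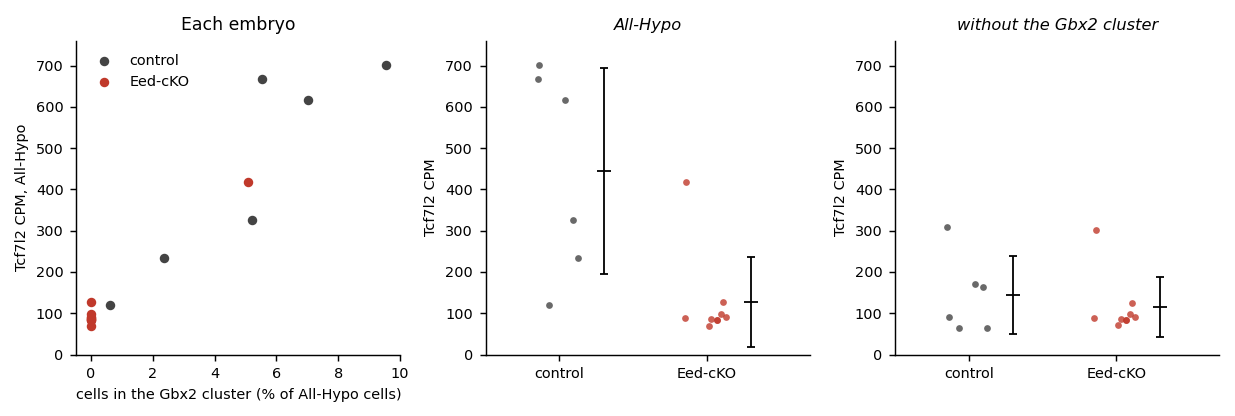
*Tcf7l2* in CPM per embryo (6 control, 9 Eed-cKO), against the percentage of All-Hypo cells in the cluster led by *Gbx2* (left), in all All-Hypo cells (middle) and without that cluster (right), with mean ± SD beside the points. With the cluster, the control median is 472 and the Eed-cKO median 89.3 CPM, and without it they are 127 and 89.2 CPM. *Tcf7l2* is among the genes that lead the cluster, so the change on its removal is a description only.

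In neuron-like cells (10119 cells in 16 clusters), 25 members were tested, of which 7 were higher (28% against 9.69% of all genes) and 2 lower (8% against 8.78%). The share of lower members was near that of all genes. The median log2 fold change was 0.20 over the members and 0.0033 over all genes. Of the members called in All-Hypo, 8 were called in the same direction here, and these cells are part of All-Hypo, so the results are not independent. *Sfrp1* ranged from 22.2 to 34.4 CPM in controls (median 26.4) and from 36.8 to 56.2 in Eed-cKO embryos (median 45.1). The genotypes did not overlap (log2 fold change 0.78 ± 0.10, adjusted p = 4.82e-06). *Dkkl1* rose from 8.79 ± 2.30 to 23.4 ± 6.39 CPM (1.36 ± 0.18 on the log2 scale, adjusted p = 6.50e-06), and *Wnt5a* from 11.3 ± 1.93 to 21.2 ± 5.35 CPM (0.87 ± 0.16, adjusted p = 0.000361), in both with every Eed-cKO embryo above every control.

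*Sfrp4*, *Rspo1*, *Fzd5* and *Wif1* were also higher in neuron-like cells, with log2 fold changes of 0.74, 0.87, 0.75 and 0.77 and adjusted p-values of 0.00234, 0.00635, 0.0142 and 0.0150. *Tcf7l2* was lower (-1.84 ± 0.39, adjusted p = 0.00169). Without the *Gbx2* cluster it did not pass (-0.17, adjusted p = 0.773), which is a description only because *Tcf7l2* is among the genes that lead that cluster. *Rspo2*, an R-spondin of low level, was at 5.21 to 7.57 CPM in controls (median 6.76) and 2.58 to 6.02 in Eed-cKO embryos (median 3.59). Its groups overlapped little and it fell by 0.75 on the log2 scale (SE 0.19, adjusted p = 0.00611). *Fzd1*, called in All-Hypo, did not pass in neuron-like cells (0.30, adjusted p = 0.0894), and *Wnt7a*, *Wnt7b*, *Wnt4*, *Sfrp2* and *Lrp6* had log2 fold changes between -0.035 and 0.086. Without the *Gbx2* cluster, *Fzd1* (0.37, adjusted p = 0.0366), *Nkd1* (0.59, adjusted p = 0.00953) and *Lef1* (0.59, adjusted p = 0.0384) also passed as higher in neuron-like cells. *Rspo2* was again lower (-0.84, adjusted p = 0.00296). That set of cells was chosen after seeing the data.

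Markers of other cells were also higher in neuron-like cells of Eed-cKO embryos. The 8 astrocyte markers summed to 152 to 181 CPM in control and 181 to 470 CPM in Eed-cKO embryos, with 5 of 6 tested higher, and the 8 tanycyte markers to 94.9 to 139 CPM and 100.3 to 177 CPM, with 3 of 5 higher. The 7 leptomeningeal markers summed to 3.19 to 9.54 CPM and 12.0 to 218 CPM, with 2 of 2 higher, and the 5 pituitary markers in the table to 70.4 to 102 CPM and 132 to 180 CPM, with 2 of 3 higher. Their part in the differences of the members in neuron-like cells was not tested.

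The make-up of the neuron-like cells differed between the genotypes: 1 cluster led by *Tfap2b* and Hox genes held 14 control and 1448 Eed-cKO cells, and with them 32.8% of the Eed-cKO *Dkkl1* UMIs, 22.1% of the *Wnt5a* UMIs and 16.5% of the *Sfrp1* UMIs. Another cluster, led by *Alas2*, *Pomc* and *Crym*, held 1 control and 225 Eed-cKO cells. It had at least 10 cells in 3 Eed-cKO embryos only, at 16.1% of the All-Hypo cells of F502_E9, 9.97% of F0589_E1 and 7.31% of F0588_E7. Over the 13 clusters with at least 10 cells in at least 3 embryos of each genotype, 28 members passed the filter, with 8 higher (28.6% against 6.27% of all 11981 genes) and none lower (0% against 5.4%). *Dkkl1* (1.24), *Sfrp1* (0.65), *Sfrp4* (0.74), *Fzd5* (1.04), *Rspo1* (1.07) and *Wif1* (1.54) were again called (log2 fold changes in brackets), together with *Lef1* (0.93) and *Fzd2* (1.88). *Fzd2* was at 1.03 ± 0.233 CPM in controls, with a median below the filter, and at 3.56 ± 1.65 CPM in Eed-cKO embryos, so that it was tested through the group where it was high. *Wnt5a* (0.38, adjusted p = 0.175) and *Rspo2* (-0.50, adjusted p = 0.131) no longer passed. *Wnt9a*, called higher in All-Hypo, did not pass in these clusters (-0.32, adjusted p = 0.652). In pooled counts per cluster, *Dkkl1* and *Sfrp1* were higher in Eed-cKO in 12 of the 13 clusters, *Sfrp4* and *Rspo1* in 11, *Fzd2* in 10, *Fzd5* in 9 and *Wif1* in 7, with *Wif1* lower in the other 6. *Rspo2* was lower in 12.

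Astrocyte-like cells were fewer, 343 from control and 365 from Eed-cKO embryos (18 to 87 per embryo, with 47304 to 359071 UMIs), and the balance of the members was different. Of 33 tested, 5 were higher (15.2% against 4.05% of all 11817 genes) and 8 lower (24.2% against 2.88%). The median log2 fold change was -0.14 over the members and -0.043 over all genes. The 2 receptors *Fzd1* and *Fzd10*, the antagonist *Wif1*, the target gene *Nkd1* and the ligand *Wnt4* rose. The 4 antagonists *Sfrp1*, *Sfrp2*, *Sfrp5* and *Dkk3*, the receptors *Fzd2* and *Fzd3*, the ligand *Wnt7b* and *Tcf7l2* fell.

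*Fzd1* was at 36.1 to 68.9 CPM in astrocyte-like cells of controls (median 48.3) and at 92.8 to 313 in those of Eed-cKO embryos (median 172). It was the only member called there whose groups did not overlap, with a log2 fold change of 2.01 ± 0.24 (adjusted p = 4.95e-08). *Fzd10*, a receptor whose promoter was the richest in CG of those printed, ranged from 0 to 14.7 CPM (median 8.43) in controls and from 12.6 to 108 (median 36.0) in Eed-cKO embryos. Controls were low throughout, the groups overlapped, and the log2 fold change was 2.57 ± 0.44 (adjusted p = 5.75e-05).

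*Wif1* was at 0 to 14.7 CPM in controls (median 4.16) and 0 to 126 in Eed-cKO embryos (median 37.1), on 10 and 68 UMIs. The groups overlapped and the log2 fold change was 2.65 ± 0.56 (adjusted p = 0.00101). *Nkd1*, an intracellular inhibitor that canonical Wnt signalling induces, ranged from 6.27 to 90.1 CPM (median 38.8) in controls and from 18.6 to 165 (median 112) in Eed-cKO embryos. Its groups overlapped, at a log2 fold change of 1.46 ± 0.30 (adjusted p = 0.000749). *Wnt4*, a ligand with 12 control and 44 Eed-cKO UMIs here, had a log2 fold change of 1.82 (adjusted p = 0.0251), and its call was lost without any 1 of 6 embryos (F0582_E7, F0589_E1, F4520_E2, F4520_E4, F4530_E2 or F4690_E3), with values of 1.64 to 1.74. Without F4650_E1 it was 2.41 (adjusted p = 0.00844).

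*Axin2* did not pass in astrocyte-like cells (0.54 ± 0.30, adjusted p = 0.353), nor did *Lef1* (1.14, adjusted p = 0.226) or *Notum* (2.69, adjusted p = 0.0518, on 2 and 19 UMIs). Leptomeningeal-like cells were where *Wnt4* had its highest pooled level (349 CPM), and endothelial-like cells were where *Nkd1* did (401 CPM). In the astrocyte-like cells the 7 leptomeningeal markers summed to 18.8 to 85.5 CPM in control and 220 to 443 CPM in Eed-cKO embryos, with 4 of 6 tested higher. The 8 endothelial markers summed to 75.2 to 95.4 CPM and 63.2 to 260 CPM, with *Cldn5* at 0, and the 8 tanycyte markers to 188 to 413 CPM and 455 to 1382 CPM. The part of these in the *Wnt4*, *Nkd1* and *Fzd1* differences was not tested. The 8 astrocyte markers themselves summed to 11004 to 23524 CPM in control (median 17642) and 8855 to 20505 CPM in Eed-cKO embryos (median 12875). Of these 8, 2 were higher and 3 lower. Their part in the rises and falls of members in astrocyte-like cells was not tested.

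*Sfrp2*, abundant in control astrocyte-like cells, showed the largest fall there among the members called. Controls ranged from 25.1 to 614 CPM (median 201) and Eed-cKO embryos from 12.0 to 52.6 (median 32.4). Only control embryo F4520_E4, the lowest, lay within the Eed-cKO range, and *Sfrp2* fell by 2.81 on the log2 scale (SE 0.37, adjusted p = 3.28e-07). *Sfrp1* was at 148 to 376 CPM in controls (median 207) and 32.4 to 157 in Eed-cKO embryos (median 111). The ends of its groups overlapped, at a log2 fold change of -1.05 ± 0.22 (adjusted p = 0.000842). *Sfrp5*, also an Sfrp antagonist, had a log2 fold change of -2.35 (adjusted p = 6.43e-05), and its control embryos were uneven, with F4520_E4 at 201 CPM and the next at 84.0 CPM.

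*Dkk3*, a divergent member of the Dkk family with high levels in astroglia, lay between 246 and 564 CPM (median 391) in controls and between 92.8 and 297 (median 184) in Eed-cKO embryos. Its groups overlapped at their ends (log2 fold change -0.93 ± 0.19, adjusted p = 0.000696). The receptor *Fzd3*, which takes part in axon guidance, had the most UMIs of the Frizzled receptors in these cells, at 362 to 737 CPM (median 582.5) in controls and 232 to 432 (median 269) in Eed-cKO embryos. Of the Eed-cKO embryos, 7 were below every control, and the log2 fold change was -0.91 ± 0.17 (adjusted p = 0.000166).

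*Fzd2* fell from 132 ± 64.5 to 55.1 ± 23.7 CPM (-1.21 ± 0.28 on the log2 scale, adjusted p = 0.00279), with overlapping groups. *Wnt7b*, a canonical ligand also known from forebrain vessel formation, went from 204 ± 48.7 to 128 ± 39.6 CPM (-0.66 ± 0.19, adjusted p = 0.0262). That call was lost without any 1 of F0571_E3, F0588_E7, F0652_E5, F4520_E2, F4650_E1 or F4690_E3, with values of -0.64 to -0.55. *Tcf7l2* ranged from 94.0 to 583 CPM (median 413) in control and from 37.1 to 135 (median 99.9) in Eed-cKO astrocyte-like cells, which are outside the *Gbx2* cluster. Control embryo F4520_E4 was again the lowest control and lay within the Eed-cKO range, and the log2 fold change was -1.78 ± 0.26 (adjusted p = 2.24e-06). The 8 thalamus and habenula markers summed to 244 to 389 CPM in control and 198 to 322 CPM in Eed-cKO astrocyte-like cells, and the 7 telencephalon markers to 43.9 to 104 CPM and 97.3 to 240 CPM, and whether the region of origin of these cells had a part in the differences was not tested.

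**Figure D3:**
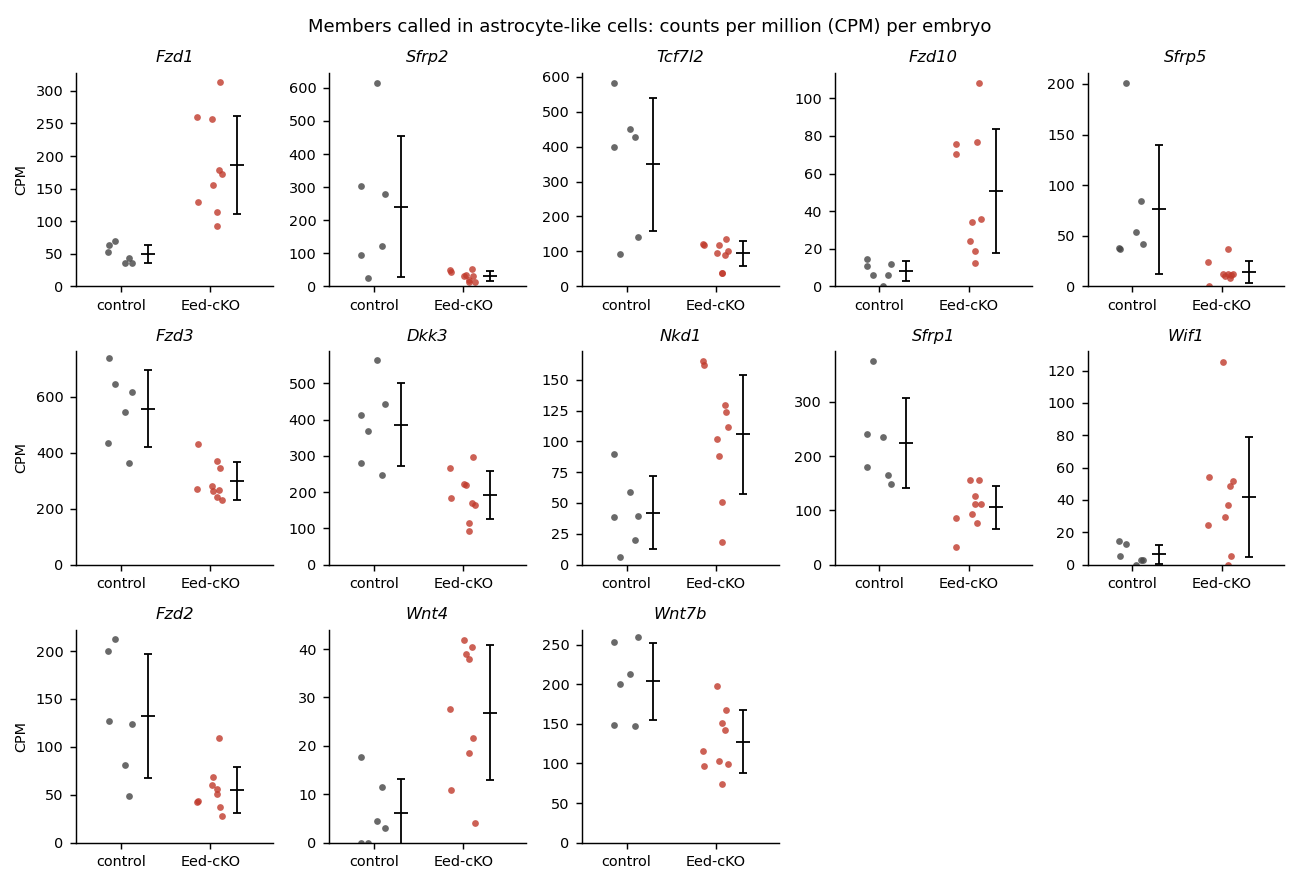
CPM per embryo in astrocyte-like cells for the 13 members called there, 1 panel each with its own axis from 0, with 6 control and 9 Eed-cKO embryos as points and the mean ± SD beside them. *Fzd1* shows no overlap (36.1 to 68.9 against 92.8 to 313 CPM), and the controls of *Sfrp2* spread from 25.1 to 614 CPM.

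Whether the genotype difference itself was unlike in astrocyte-like and neuron-like cells was tested as an interaction within embryos. Of 32 members tested, 12 passed (390 of 12463 genes, 3.13%). *Sfrp1* had the clearest opposite effects: 0.78 in neuron-like and -1.05 in astrocyte-like cells, a difference of -1.86 ± 0.22 on the log2 scale (adjusted p = 7.72e-07). Log2 differences of the same sign, with the more negative effect in astrocyte-like cells, were found for *Fzd2* (-3.24, adjusted p = 4.92e-06), *Dkk3* (-1.29, adjusted p = 0.000321), *Sfrp2* (-2.67, adjusted p = 0.000713), *Fzd3* (-0.84, adjusted p = 0.00117), *Wnt5a* (-1.32, adjusted p = 0.00135), *Fzd5* (-2.13, adjusted p = 0.0124) and *Tcf7l1* (-2.28, adjusted p = 0.0125). The more positive effect in astrocyte-like cells was found for *Fzd1* (1.66, adjusted p = 0.000127), *Nkd1* (1.85, adjusted p = 0.000709), *Fzd10* (4.13, adjusted p = 0.000847) and *Wnt4* (1.92, adjusted p = 0.0357). *Tcf7l2* fell in both kinds, and a difference was not shown (0.32 ± 0.27, adjusted p = 0.683). With the 13 neuron-like clusters shared by the genotypes, *Nkd1*, *Fzd10*, *Wnt5a* and *Tcf7l1* no longer passed, at differences of 1.12, 2.26, -0.79 and -1.73 (adjusted p = 0.099, 0.375, 0.126 and 0.0795).

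**Figure D4:**
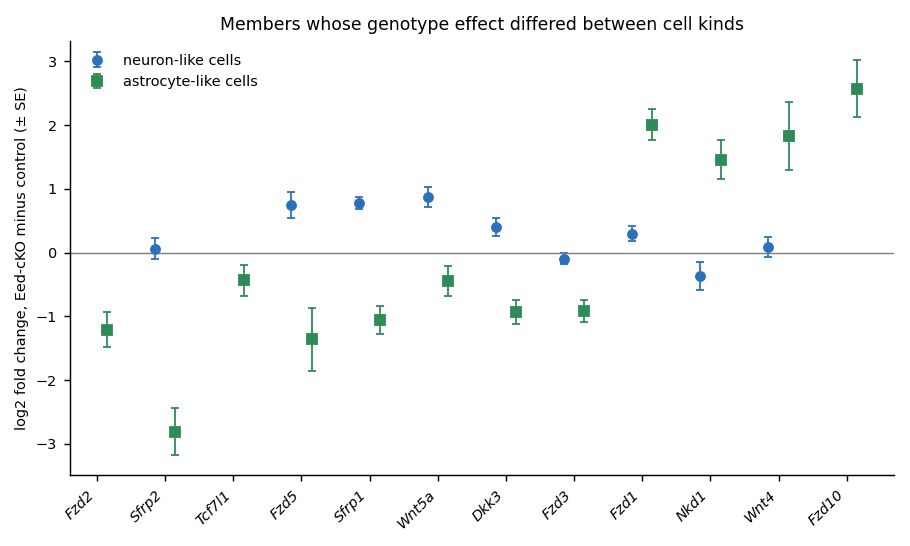
Log2 fold change (Eed-cKO minus control, ± SE) in neuron-like (circles) and astrocyte-like cells (squares) for the 12 members past the interaction test, ordered by the difference, with no circle where a member was not tested in neuron-like cells (*Fzd2*, *Tcf7l1* and *Fzd10*). *Sfrp1* lies at 0.78 and -1.05, and *Fzd1* at 0.30 and 2.01.

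In the other kinds of cell few members passed. In tanycyte-like cells (3 control and 7 Eed-cKO embryos with at least 10 cells), 2 of 19 members were lower and none higher, and 0.434% of all genes were called. *Frzb*, a secreted Wnt-binding antagonist, was at 395 to 663 CPM in controls (median 507) and 83.1 to 228 in Eed-cKO embryos (median 138), without overlap (log2 fold change -1.74 ± 0.30, adjusted p = 9.95e-05). *Fzd5* was at 525 to 842 CPM and 174 to 501.7 CPM, also without overlap (-1.02 ± 0.26, adjusted p = 0.0395), but its call was lost without any 1 of 6 embryos (F0571_E3, F0588_E7, F0589_E1, F4520_E2, F4520_E4 or F4690_E3), with values of -1.16 to -0.79. Both genes are among those that lead this cluster, so that their levels also decided which cells belong to it.

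In leptomeningeal-like cells, which Sox1-Cre should not reach, 1 of 28 members was lower (1.88% of all genes were called). *Wnt6*, a ligand known from meningeal cells, was at 250.2, 264 and 277 CPM in the 3 control embryos and at 0 to 139 CPM (median 92.3) in the 8 Eed-cKO embryos. The groups did not overlap, and *Wnt6* fell by 1.53 on the log2 scale (SE 0.30, adjusted p = 0.00363). Of the leptomeningeal-like cells, 64 control and 251 Eed-cKO cells lay in a cluster led by *Ptgds* and *Col3a1*. Another cluster, led by *Nov* and *Cldn11*, held 25 and 17. The part of this mix in the *Wnt6* difference was not tested. In cycling progenitor-like cells (6 and 6 embryos), edgeR and DESeq2 called none of 24 members, 5 had an unadjusted p of 0.05 or less, and 4.22% of all genes were called. The leading genes of this cluster included *Sox10* and *Pdgfra*. Its 6 oligodendrocyte precursor markers summed to 2907 to 5563 CPM in control and 1032 to 2494 CPM in Eed-cKO embryos, with 6 of 6 lower. The 7 cycling markers summed to 1373 to 3138 CPM and 3094 to 4333 CPM, with 3 of 7 higher. The part of this in the member values was not tested. Endothelial-like cells (6 and 6 embryos) gave none of 15 members by either tool, 3 at the unadjusted level, and 0.306% of all genes.

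Over all kinds, the pooled level of a member was highest in astrocyte-like cells for 13 members, in leptomeningeal-like cells for 8, in endothelial-like cells for 6, in tanycyte-like and pericyte-like cells for 5 each, in ependymal-like cells for 4, in choroid plexus-like cells for 3, in unnamed clusters for 2, and in neuron-like cells for *Tcf7l2* alone. These levels pool the cells of both genotypes, in unequal numbers, and carry no test. Taken within each genotype, the highest kind was the same in control and Eed-cKO cells for 23 of the 47 members. *Tcf7l2* was highest in neuron-like cells of controls and in tanycyte-like cells of Eed-cKO embryos, *Fzd1* in endothelial-like and astrocyte-like cells, and *Tcf7l1* in pericyte-like (14 UMIs) and tanycyte-like cells. The choroid plexus-like cells were all from Eed-cKO embryos, and for *Dkk1* and *Wnt10a* their level rests on 1 UMI each. For the members named next, the highest kind was the same in both genotypes. *Fzd5* stood at 371 CPM and *Frzb* at 218 CPM in tanycyte-like cells, where the next highest kinds were at 27.5 and 24.7 CPM. *Fzd6* (352 CPM), *Nkd1* (401 CPM) and *Lef1* (189 CPM) had their highest level in endothelial-like cells, known for active canonical signalling during formation of the blood-brain barrier. Of the ligands, *Wnt7b* (165 CPM) and *Wnt7a* (44.1 CPM) were highest in astrocyte-like cells, and *Wnt4* (349 CPM), *Wnt6* (131 CPM) and *Wnt11* (29.7 CPM) in leptomeningeal-like cells. Since 3′ tags are counted, 1 transcript gives 1 UMI whatever its length, and levels of different genes may still differ in capture.

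**Figure D5:**
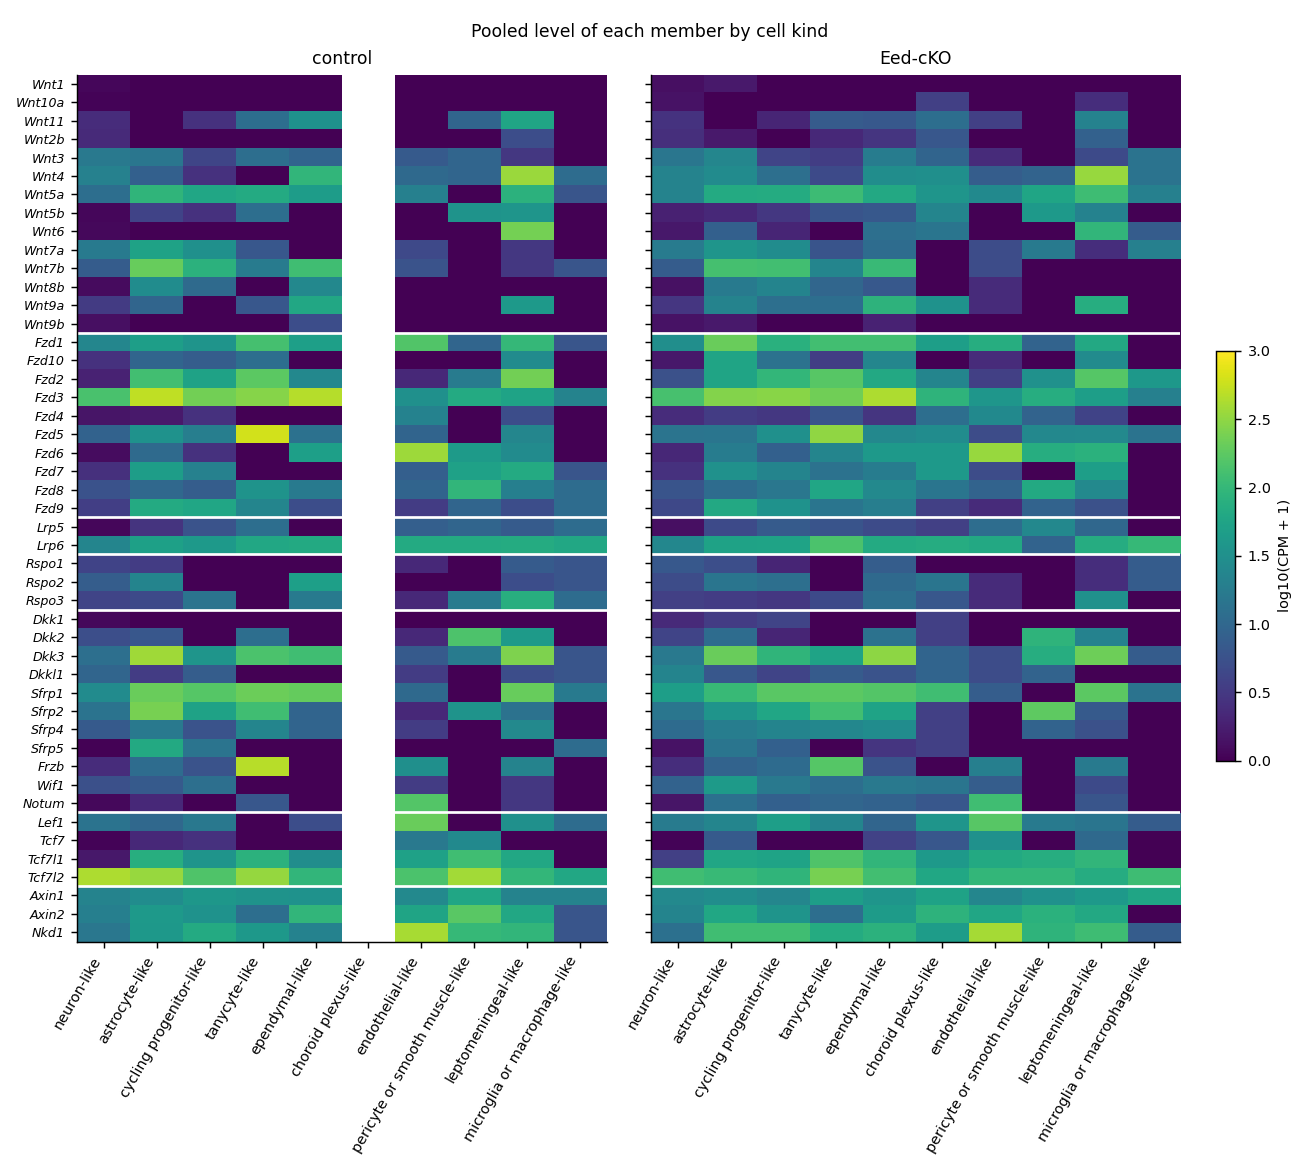
Pooled level of each member (colour, log10 of CPM + 1) by cell kind, for control (left) and Eed-cKO cells (right), with white lines between the roles. *Fzd5* and *Frzb* stand out in tanycyte-like cells and *Fzd6*, *Nkd1* and *Lef1* in endothelial-like cells, and the empty column stands for choroid plexus-like control cells, of which there were 0.

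The 15 members left out of All-Hypo by the filter on low counts were *Lrp5*, *Tcf7*, *Rspo3*, *Notum*, *Fzd4*, *Dkk1*, *Sfrp5* and the ligands *Wnt1*, *Wnt2b*, *Wnt5b*, *Wnt6*, *Wnt8b*, *Wnt9b*, *Wnt10a* and *Wnt11*. Over all All-Hypo cells *Wnt1*, the midbrain organizer ligand, had 4 control and 10 Eed-cKO UMIs, and *Dkk1*, an antagonist that binds Lrp6, had 5 and 43. *Wnt8b*, a ligand of the caudal forebrain midline, had 65 and 70, *Rspo3* had 125 and 100, and *Sfrp5* had 116 and 43. With every gene of at least 15 UMIs, 14 of the 15 (all but *Wnt1*) were tested, with 6 higher and 1 lower. Besides *Notum*, the ligands *Wnt6* (3.11, adjusted p = 0.000277) and *Wnt5b* (1.96, adjusted p = 0.00136), the antagonist *Dkk1* (3.01, adjusted p = 0.00149), the receptor *Fzd4* (1.47, adjusted p = 0.00676) and the co-receptor *Lrp5* (1.31, adjusted p = 0.0263) were higher (log2 fold changes in brackets). In controls these 6 had means of 0.124 (*Wnt6*) to 0.554 CPM (*Fzd4*), so that they were tested mainly through the Eed-cKO embryos. *Wnt6* was highest in leptomeningeal-like and *Fzd4* in endothelial-like cells of both genotypes, and the part of these cells was not tested. *Sfrp5* was lower (-1.27, adjusted p = 0.0119), at 3.10 ± 1.36 CPM in controls and 1.41 ± 0.922 in Eed-cKO embryos. Of the 47 members, 25 were called in none of All-Hypo, neuron-like and astrocyte-like cells, and 12 of them were left out of each by the filter on low counts.

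Of 59 other pathway genes, 55 were in the table. In All-Hypo 49 were tested, with 13 higher (26.5% against 15.3% of all genes) and 5 lower (10.2% against 12.4%, near the share of all genes). *Wls*, which carries Wnts to the cell surface, rose from 17.98 ± 4.78 to 72.4 ± 26.6 CPM (log2 fold change 2.03, adjusted p = 3.68e-07). *Ccnd1*, a cell cycle gene that canonical signalling among other pathways can induce, rose from 17.5 ± 3.98 to 149 ± 26.9 CPM (3.09, adjusted p = 9.88e-13). Also higher, with log2 fold changes in brackets, were the Wnt5a receptor *Ror2* (1.495), the co-receptor inhibitor gene *Kremen1* (1.15), the glypicans *Gpc3* (0.82) and *Gpc4* (0.86), *Znrf3* (0.36), *Daam2* (1.26), *Celsr1* (0.83), *Tle3* (0.55) and the target genes *Sp5* (1.43) and *Tnfrsf19* (0.97). The last of the 13 was *Sostdc1*, a secreted inhibitor, at 9.09 ± 3.37 CPM in controls and 25.8 ± 34.5 CPM in Eed-cKO embryos (log2 fold change 1.47, adjusted p = 0.0377). It is among the genes that lead the choroid plexus-like cluster of 61 Eed-cKO and 0 control cells, and it did not pass in neuron-like (-0.19) or astrocyte-like cells (-0.18). The 6 choroid plexus markers summed to 6.73 to 13.2 CPM in control and 14.2 to 25016 CPM in Eed-cKO All-Hypo embryos, and their part in the *Sostdc1* difference was not tested. The 5 lower genes had small log2 fold changes and included 4 of the cytoplasmic machinery, *Apc* (-0.30), *Gsk3a* (-0.25), *Gsk3b* (-0.37) and *Btrc* (-0.37), besides *Bcl9* (-0.38). In All-Hypo the 5 tested leptomeningeal markers were all higher (7 markers summing to 4.73 to 32.3 CPM in control and 68.1 to 461 CPM in Eed-cKO), and 7 of 7 cycling markers too, and the part of either in these differences was not tested.

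In neuron-like cells 3 of 47 pathway genes tested were higher (6.38% against 9.69% of all genes) and 5 were lower (10.6% against 8.78%), and in astrocyte-like cells 3 of 46 were higher (6.52% against 4.05%) and 1 was lower (2.17% against 2.88%). These shares were near those of all genes and are no result about the list. In neuron-like cells the higher genes were (log2 fold changes in brackets), *Wls* (0.56), *Ccnd1* (3.51) and *Tle3* (0.45), and the lower ones *Apc*, *Gsk3b*, *Btrc*, *Bcl9* and *Myc* (-0.42). In astrocyte-like cells *Ccnd1* (3.19, adjusted p = 2.62e-16), *Tnfrsf19* (1.43) and *Wls* (0.90) were higher, and *Tle4*, a co-repressor of TCF factors, was lower (-0.87). No gene of the planar polarity list, apart from *Celsr1* in All-Hypo, passed in any of the 3 comparisons.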

How the data were processed

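Single cells of dissociated E18.5 hypothalamus were captured in droplets (ddSEQ, 3′ whole transcriptome kit) in 48 libraries. What the authors deposited was a single matrix of raw UMI counts, 16510 genes by 14121 cells, covering every library. Submitters' processing notes name STAR 2.5.2b, SAMtools 1.3 and mm10, and the annotation and strand setting of the counting are not given in the sources used here. Exons of 11 members overlap a gene on the opposite strand (*Fzd5*, *Fzd6*, *Sfrp2*, *Wnt11*, *Wnt5a*, *Wnt7b*, *Axin2*, *Lef1*, *Tcf7l1*, *Rspo3* and *Notum*, GENCODE vM21), whose reads could then be counted with them. Cells under the authors' filter had been removed before deposit, and the lowest cell held 601 UMIs.

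Clustering used scanpy 1.11.5 in Python 3.11.15 with leidenalg 0.10.2 (scaling to 10000, 2000 variable genes, 30 principal components, 15 neighbours, resolution 1, seed 0) into 28 clusters, named "-like" from marker lists (at least 3 markers at a fold of 2 in 10% of cells). Names are rebuilt and may differ from those of the study. Unnamed clusters held 1580 cells. Doublets were kept in the main results.

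Counts were summed per embryo, the replicate (6 control and 9 Eed-cKO, separate animals), over embryos with at least 10 cells of a kind. Some litters gave more than 1 embryo, and the tests between genotypes had no term for litter. Their p-values therefore take no account of likeness among littermates. A gene was tested when its median log-CPM was at least 1.5, with 15 UMIs in all and 2 in some embryo. They were tested with the quasi-likelihood test of edgeR 4.0.16 in R 4.3.3 (TMM, two-sided, Benjamini-Hochberg over all genes, call at 0.05), and the interaction had the embryo as a block. Every adjusted p is from edgeR unless another tool is named, and CPM are TMM-scaled. The step was tested on simulated data. An All-Hypo sum held 627508 to 7328566 UMIs in 208 to 1595 cells.

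Values per embryo were given in full for members called in All-Hypo, neuron-like or astrocyte-like cells, at most the 20 with the lowest All-Hypo adjusted p. The members and lists were chosen with earlier results of these data known. Alternatives were the normalization, gene filter, tool (DESeq2 1.42.0, limma 3.58.1 with voom, or with TREAT at 0.18), replicate, sex, cell minimum, left-out clusters, the 6% of cells with the highest Scrublet score, and each embryo left out. The authors' comparisons and other stages were not used here.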

Additional observations from a re-analysis of the deposited data

Results flagged for a closer look

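In 84 groups of embryos (called members, by comparison and genotype), the most extreme embryo was compared with its nearest neighbour by Dixon's ratio. Chance marks about 1 in 20 groups, and 11 were marked. In All-Hypo these were *Tcf7l1* in Eed-cKO embryo F0589_E1 (21.8 CPM, next 13.8), *Fzd2* in the same embryo (27.0 CPM, next 15.2), *Tcf7l2* in Eed-cKO embryo F502_E6 (417 CPM, next 127) and *Fzd6* in control embryo F4650_E1 (3.15 CPM, next 1.28). In neuron-like cells they were *Tcf7l2* in F502_E6 (477 CPM, next 130), *Fzd5* in Eed-cKO embryo F0652_E8 (21.8 CPM, next 13.8), *Wif1* in Eed-cKO embryo F0582_E2 (16.1 CPM, next 10.5) and *Wnt5a* in control embryo F4650_E2, which was the lowest (7.60 CPM, next 11.2). In astrocyte-like cells they were *Fzd2* in F0589_E1 (109 CPM, next 68.3), *Sfrp5* in control embryo F4520_E4 (201 CPM, next 84.0) and *Wif1* in Eed-cKO embryo F0582_E7 (126 CPM, next 54.1). F502_E6 was also the only Eed-cKO embryo with cells of the *Gbx2* cluster.

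The genotype effect differed between astrocyte-like and neuron-like cells, by the interaction test, in 12 members. The differences of log2 fold changes were -1.86 for *Sfrp1*, -2.67 for *Sfrp2*, -1.29 for *Dkk3*, 1.66 for *Fzd1*, -3.24 for *Fzd2*, -0.84 for *Fzd3*, -2.13 for *Fzd5*, 4.13 for *Fzd10*, 1.92 for *Wnt4*, -1.32 for *Wnt5a*, -2.28 for *Tcf7l1* and 1.85 for *Nkd1*. In 6 of them (*Sfrp1*, *Sfrp2*, *Dkk3*, *Fzd5*, *Wnt5a* and *Nkd1*) the fitted effects had opposite signs in the separate tests of the 2 kinds. For *Nkd1* the neuron-like sign depended on the *Gbx2* cluster. It was -0.36 with it, 0.59 without it (adjusted p = 0.00953) and 0.44 in the neuron-like clusters shared by the genotypes. The neuron-like value of *Sfrp2* was small, 0.062, and became -0.15 in the shared clusters. *Sfrp1*, *Dkk3*, *Fzd5* and *Wnt5a* kept a positive sign in both sets. *Fzd2*, *Fzd10* and *Tcf7l1* were left out of the test in neuron-like cells alone by the filter on low counts, so that no sign is given for them there.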

How the results depend on the processing

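The 13 calls in All-Hypo became 20 with every gene of at least 15 UMIs, 20 with no filter beyond 1 UMI and 22 with each library as a sample, and lay between 12 and 17 under the other settings. The 9 calls in neuron-like cells became 15 with the 15-UMI filter, and the 2 in tanycyte-like cells became 1 with a minimum of 5 cells per embryo (*Fzd5* -0.58, adjusted p = 0.371). Fewer genes are removed by those filters, and libraries of 1 embryo are not independent. For these counts and those with 1 embryo left out, the share of all genes called is given only where stated above. Without that share, the counts are no result about the members. With 1 embryo left out, calls were 11 to 15 in All-Hypo, 9 to 10 in neuron-like cells, 11 to 15 in astrocyte-like cells, 10 to 13 for the interaction, 1 to 2 in tanycyte-like cells, 1 to 3 in leptomeningeal-like cells, 0 to 2 in cycling progenitor-like cells and 0 in endothelial-like cells.
The log2 fold change of *Wnt7b* in All-Hypo, 0.10, turned to -0.015 without the *Gbx2* cluster and ranged from -0.012 to 0.20 with 1 embryo left out. That of *Wnt4*, 0.053, ranged from -0.026 to 0.18. Neither passed the test. *Rspo2* passed in All-Hypo without F0588_E7 (-0.76) or F502_E9 (-0.68), *Fzd10* without F4530_E2 (1.12) or F4650_E1 (1.06) and *Dkk3* without F4650_E1 (0.42). In the interaction, *Wnt4* was lost without any 1 of 8 embryos (F0571_E3, F0582_E7, F0589_E1, F0652_E5, F4520_E2, F4520_E4, F4530_E2 or F4690_E3, at 1.77 to 1.90) and was 2.52 without F4650_E1, *Fzd5* was lost without F4520_E4 (-1.91) and *Tcf7l1* without F0589_E1 (-1.93). In cycling progenitor-like cells *Dkk3* passed without F0571_E3, F4520_E2 or F4530_E2, and *Fzd1* and *Fzd2* without F4520_E4. In leptomeningeal-like cells *Rspo3* passed without F0588_E7 (with *Wnt11*) or F4650_E1 (with *Fzd6*). The cause of these changes was not tested. For the named members, 407 of 435 other settings kept the direction and side of the threshold. No paired analysis was possible because the labels give the genotypes no shared replicate numbers. Depth limits the rare members most: 15 members were left out of All-Hypo by the filter on low counts, and 14 of them were tested with the 15-UMI filter.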
